A study of Oryza sativa with 18 samples.

Results

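Short circular RNAs (circRNAs) of rice young panicles are described here. They were taken from the deposited table of back-spliced junction reads, in which each circRNA carries its chromosome, start and end on the MSU-v7.0 rice genome as its name. The span is the end minus the start. A circRNA was included when its span was below 1000 bases and its junction reads summed to at least 5 over all 18 libraries, which 728 of the 9994 circRNAs met (7.28%). Another 5540 circRNAs had spans below 1000 bases but fewer reads, and 4315 of these had exactly 2 reads. The circRNAs were thus selected on their span and their summed reads, which are given below as a description. At the edges of the rule, 107 included circRNAs had exactly 5 reads and 688 that were left out had exactly 4, and 20 included circRNAs lay within 50 bases below the limit in span (median 6 reads), against 25 left out with at least 5 reads that lay within 50 bases above it (median 7).

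A circRNA forms when the spliceosome joins a downstream donor site to an upstream acceptor site, so that the RNA closes on itself and has no free ends. Such RNAs resist exonucleases that digest linear RNA, and they are seen in sequencing only through reads that cross the back-spliced junction. In plants they come from exons, introns and the DNA between genes, and those with a short span can hold a single exon or a few neighbouring ones. One gene can give several circRNAs that share a splice site at one end, which is called alternative back-splicing.

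The panicles came from Wuxiang S (WXS), an indica photo-thermosensitive genic male sterile rice line, which is male sterile under long days and heat and fertile under short days and lower temperature. WXS (F) plants were held in an incubator with 12 h light and 12 h dark at about 21 °C, and WXS (S) plants stayed in the field above 24 °C with days longer than 12 h, so temperature, day length and growth site cannot be told apart between them. Panicles were taken at pollen mother cell formation (P2), meiosis (P3) and microspore formation (P4), with 3 biological replicates for each of FP2, SP2, FP3, SP3, FP4 and SP4. Both conditions share the sterile line's genotype, and the 18 libraries hold no other variety. Whole panicles were sampled, so fewer cells of a type and less RNA per cell cannot be told apart.

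Libraries held between 4066 and 8686 junction reads. The shallowest, the second SP3 replicate, and the first SP2 replicate had fewer short circRNAs than the other libraries of their groups, and results that rest on them are given with and without them. The 4 floral organ identity markers, 4 markers of male germ cells and meiosis and 4 tapetum markers fixed for the check of the tissue were above 0 FPKM in each library, as were the 3 leaf Rubisco genes. The meiosis markers summed to 29.2 to 30.5 FPKM in FP2 and 43.6 to 52.2 in SP2, to 25.1 to 28.7 in FP3 and 50.8 to 65.1 in SP3, and to 7.77 to 8.87 in FP4 and 33.6 to 35.8 in SP4. MEL1 made up most of these sums, with means of 21.6 FPKM in FP2 and 42.4 in SP2. PAIR3 went the other way at P2 (3.94 in FP2 and 1.74 in SP2). ZEP1 was about level between the conditions at P2 (3.19 and 3.09) and P3 (2.60 and 2.57). The summed floral markers were likewise lower in WXS (F) without overlap. They were 135 to 140 FPKM in FP2 and 174 to 290.0 in SP2, 158 to 166 in FP3 and 248 to 471 in SP3. At P4 they were 304 to 329 in FP4 and 343 to 351 in SP4. There only OsMADS16 had the lower mean in WXS (F) (118 FPKM in FP4 and 155 in SP4). OsMADS1 (162 and 158), OsMADS3 (27.6 and 23.7) and OsMADS58 (10.8 and 9.52) had the higher one. OsMADS3 was also slightly higher in FP2 (5.72) than in SP2 (5.52). The tapetum marker sums overlapped at P2 (1.89 to 2.66 FPKM in FP2 and 2.59 to 3.39 in SP2) and P3 (14.7 to 18.3 in FP3 and 17.4 to 23.7 in SP3). At P4 they were 82.9 to 90.4 FPKM in FP4 and 32.1 to 36.8 in SP4. The sum in FP4 rested mainly on CYP703A3 (mean 66.7 FPKM in FP4 and 2.52 in SP4). EAT1 was also higher in FP4 (10.2 and 6.42), while TDR was lower (9.14 and 23.6) and UDT1 about level (1.25 and 1.34). At P3 CYP703A3 was higher in FP3 (8.65 and 2.03). TDR (3.06 and 7.66), EAT1 (3.31 and 8.02) and UDT1 (1.50 and 1.98) were lower there. The leaf genes summed to 4.90 to 5.11 FPKM in FP2 and 9.22 to 15.6 in SP2, to 6.40 to 7.19 in FP3 and 13.7 to 22.6 in SP3, and overlapped at P4 (35.7 to 38.0 in FP4 and 36.3 to 44.0 in SP4). The meiosis and floral sums thus differed between the conditions at every stage, the leaf sum at P2 and P3 and the tapetum sum at P4. Single markers within a sum could go the other way. The part of these cell types in the results below was not tested.

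The study designed divergent primers, which point away from each other on linear RNA and meet only across a back-spliced junction, for 10 of the 728 circRNAs. The pairs for 4 circRNAs that differed between WXS (F) and WXS (S) and for the short circRNA with the most reads are shown, 5′ to 3′, since they are the study's own PCR probes of these junctions. The read counts below come from sequencing and do not use them. Capitals mark bases that are also the reverse complement of the study's convergent primers for the same circRNA. The convergent pair was the study's positive control, which amplified both cDNA and genomic DNA. All lower case means that no such stretch was found or that no convergent pair is listed.
Chr8:27737960|27738788 forward: AGCTGACTTCCAATCCTCTTCG
Chr8:27737960|27738788 reverse: GAAGGCTCACTCCAAGACCT
Chr5:17019124|17019556 forward: GTCGAAGATGCCGCACAAC
Chr5:17019124|17019556 reverse: ctgtccctcgtcaagcacg
Chr1:25563110|25563966 forward: caagaggcagccttccg
Chr1:25563110|25563966 reverse: gacaggaagacgctggataag
Chr3:4888755|4889140 forward: GACGCGCATGTCCTCTACAC
Chr3:4888755|4889140 reverse: TTGAGTCGGATGTGCTCCAT
Chr1:24999798|25000624 forward: ACAAGACATGCATGATGCTCCA
Chr1:24999798|25000624 reverse: AGGACTCCCAGCTCCTACAA
In 6 of the 8 circRNAs that had both kinds of pair, both divergent primers were the reverse complements of the convergent primers over their whole length.

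Most short circRNAs were rare. Their median was 8 junction reads over the 18 libraries, 22 of them had at least 100 reads, and 10 circRNAs held 28.2% of the 14945 reads of the group. Together they held 11.9% of all junction reads, against 19.5% for the 593 circRNAs of 1000 to under 5000 bases and 52.9% for the 319 of 5000 bases or more with the same read minimum. Spans ran from 149 to 999 bases with a median of 389.5 bases, and 67 circRNAs with spans below 149 bases had too few reads. Chromosome 3 gave 114 of the 728, chromosome 1 gave 102 and chromosome 2 gave 97. Reads in a single library were found for 159 (21.8%), in at most 2 libraries for 333 (45.7%) and in all 18 libraries for 6.

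The deposited table also gives a length for each circRNA, whose derivation is not given in the sources used here. It equalled the span plus 1 base, the whole stretch between the ends, for 401 of the 728 short circRNAs (55.1%), against 21.8% of those of 1000 to under 5000 bases and 85.9% of the longer ones. It was shorter for 309, by a median of 174 bases, and longer for 18. A shorter length was rare below a span of 300 bases (14 of 283 circRNAs) and common at 300 to 599 bases (145 of 234) and 600 to 999 bases (150 of 211).

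The conditions were compared stage by stage with edgeR's quasi-likelihood test on the junction reads, and a circRNA entered a test when at least 3 of the 6 libraries held reads of it. Positive log2 fold changes mean higher in WXS (F). Only 155 short circRNAs could be tested at P2, 129 at P3 and 81 at P4. A call needed a Benjamini-Hochberg adjusted p below 0.05 with a log2 fold change of 1 or more in size. At P2 5 short circRNAs were called (3.23% of those tested), 2 higher (1.29%) and 3 lower (1.94%) in FP2. Of all 394 circRNAs tested there, 2.03% were called (1.02% higher and 1.02% lower). At P3 1 was higher and 1 lower in FP3 (0.775% each), beside 1.82% of 385 circRNAs (1.56% higher and 0.260% lower). At P4 1 was higher in FP4 (1.23%), beside 1.44% of 278 (all higher, 0% lower).

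At an unadjusted p below 0.05 with the same limit on the fold change, P2 gave 44 short circRNAs (28.4%, beside 22.1% of all tested), P3 gave 32 (24.8%, beside 21.0%) and P4 gave 22 (27.2%, beside 21.9%). Of the 44, 30 were higher (19.4% of the 155 tested) and 14 lower (9.03%) in FP2, beside 15.0% and 7.11% of all circRNAs tested. Of the 32, 20 were higher (15.5% of the 129 tested) and 12 lower (9.30%) in FP3, beside 14.0% and 7.01%. Of the 22, 18 were higher (22.2% of the 81 tested) and 4 lower (4.94%) in FP4, beside 17.6% and 4.32%. A circRNA with reads in all 3 libraries of one condition and none of the other passes the filter through the group where it is high and had to differ, and 30 of the 44, 19 of the 32 and 14 of the 22 were of this kind. Among the short circRNAs with reads in both conditions, P2 gave 14 of 125 (11.2%), P3 13 of 110 (11.8%) and P4 8 of 67 (11.9%), against 8.08%, 9.25% and 11.1% of all circRNAs with reads in both. Of the 220 short circRNAs tested at any stage, 76 passed the unadjusted threshold at 1 stage or more, 60 at exactly 1 stage and 6 at all 3.

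The fitted log2 fold changes of the short circRNAs had medians of 0.38 (P2), 0.04 (P3) and 0.84 (P4), beside 0.20, 0.30 and 0.47 over all circRNAs tested. With circRNAs that had no reads in one condition set to the bound that 3 reads per library allow, these medians were 0.21, 0 and 0.52, beside 0.11, 0.05 and 0.19.

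Among the short circRNAs higher in WXS (F), Chr8:27737960|27738788 spans 828 bases of chromosome 8 and has a deposited length of 745 bases. It had 76, 59 and 59 reads in FP2, against 4, 13 and 8 in SP2. It had 58, 44 and 32 reads in FP3, against 9, 5 and 14 in SP3, and 18, 16 and 6 in FP4, against 2, 0 and 0 in SP4. The conditions did not overlap at any stage, and both had their fewest reads at P4. The log2 fold change was 3.00 at P2 (SE 0.37, adjusted p = 0.00483 from edgeR) and 2.12 at P3 (SE 0.43, adjusted p = 0.0491). At P4, where SP4 held 2 reads in all, the ratio of reads per junction read was 13.8 with a 95% counting interval of 3.59 to 118, and the adjusted p was 0.0686.

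Chr5:17019124|17019556 spans 432 bases of chromosome 5 and has a length of 433 bases. FP2 held 44, 25 and 48 reads, against 0, 2 and 0 in SP2. FP3 held 45, 36 and 32 reads, against 0, 3 and 5 in SP3, and FP4 held 25, 40 and 37, against 2, 3 and 2 in SP4. Its level in WXS (F) thus varied little with the stage, with CPM (junction reads per 1e6 junction reads of the library) of 5499 ± 1284 in FP2, 4758 ± 749 in FP3 and 4588 ± 919 in FP4 (SD, n = 3 each), while no SP library had more than 5 reads. At P2 the ratio was 68.8 with a counting interval of 18.6 to 575 (adjusted p = 0.00483 from edgeR). The log2 fold change was 3.58 at P3 (SE 0.75, adjusted p = 0.0585) and 3.42 at P4 (SE 0.38, adjusted p = 0.0125).

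Of the circRNAs lower in WXS (F), Chr8:3168193|3168354 had the most reads (823), and its span of 161 bases is short even here. It had 22, 21 and 27 reads in FP2, against 86, 196 and 210 in SP2. It had 11, 9 and 13 in FP3, against 83, 32 and 57 in SP3, and 4, 2 and 4 in FP4, against 10, 24 and 12 in SP4. The WXS (F) libraries lay below the WXS (S) libraries at each stage, and both conditions had their fewest reads at P4. Log2 fold changes were -2.74 at P2 (SE 0.35, adjusted p = 0.00483), -2.45 at P3 (SE 0.40, adjusted p = 0.0164) and -2.56 at P4 (SE 0.54, adjusted p = 0.0681).

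Chr1:25563110|25563966 spans 856 bases. It had 6, 2 and 0 reads in FP2, against 47, 52 and 54 in SP2. It had 2, 2 and 12 in FP3, against 51, 27 and 34 in SP3, and 3, 2 and 4 in FP4, against 8, 13 and 20 in SP4. The 3 SP2 libraries agreed closely, with a coefficient of variation of 3.17% in CPM. The log2 fold change was -4.17 at P2 (SE 0.68, adjusted p = 0.0194), -2.86 at P3 (SE 0.70, adjusted p = 0.0793) and -2.52 at P4 (SE 0.51, adjusted p = 0.0681).

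The fifth call at P2 was Chr8:3168033|3168192, with 7, 7 and 6 reads in FP2 and 17, 28 and 27 in SP2 (log2 fold change -1.78, SE 0.35, adjusted p = 0.0498). At P3 it had 11, 5 and 0 reads in FP3 and 8, 5 and 5 in SP3, which overlap. Leaving out the second FP2 library removed all 5 calls at P2 (edgeR adjusted p = 0.0572 to 0.342), with log2 fold changes close to those given above. They were then 3.04 for Chr8:27737960|27738788, 5.90 for Chr5:17019124|17019556, -2.70 for Chr8:3168193|3168354, -3.99 for Chr1:25563110|25563966 and -1.83 for Chr8:3168033|3168192. Without the third FP2 library Chr8:3168193|3168354 was lost (adjusted p = 0.0608), and Chr8:3168033|3168192 was lost in 5 of the 6 fits without 1 library (adjusted p = 0.108 to 0.342). Without the second FP3 library both calls at P3 were lost (log2 fold change -2.40 and adjusted p = 0.102 for Chr8:3168193|3168354, 2.07 and 0.182 for Chr8:27737960|27738788), and the call of Chr8:27737960|27738788 was also lost without the first (0.0942) or the second (0.0585) SP3 library. The P4 call of Chr5:17019124|17019556 was lost without the first SP4 library (log2 fold change 3.30, adjusted p = 0.0629) or without the third (3.27, adjusted p = 0.0514).

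When all 18 libraries were fitted together by edgeR, with a term for the stage, 395 short circRNAs had enough reads to test. The adjusted threshold was passed by 17 of them (4.30%), of which 13 were higher in WXS (F) (3.29%) and 4 lower (1.01%). Of all 968 circRNAs tested, 3.51% passed (2.58% higher and 0.930% lower). At the unadjusted threshold 117 passed (29.6%), 82 higher (20.8%) and 35 lower (8.86%), beside 26.9% of all (19.4% and 7.44%). Of the 395, 53 had no reads in any WXS (S) library and 22 none in any WXS (F) library (13.4% and 5.57%, against 12.5% and 4.34% of the 968). The smallest adjusted p values belonged to Chr8:3168193|3168354 (log2 fold change -2.59, SE 0.34, adjusted p = 3.82e-05), Chr5:17019124|17019556 (4.09, SE 0.56, adjusted p = 4.81e-05), Chr1:25563110|25563966 (-3.16, SE 0.53, adjusted p = 0.000571) and Chr8:27737960|27738788 (2.83, SE 0.47, adjusted p = 0.000571). These fits use the same libraries as the tests at each stage and are no separate evidence.

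Of the 17, 8 had no reads in any library of one condition, 7 with none in WXS (S) and 1 with none in WXS (F). They passed the filter only through the other condition and had to differ, so their reads are given as a description with no p value. The other 9 had reads in both conditions, 6 higher and 3 lower in WXS (F). Chr2:11734000|11734652 had 6, 7 and 3 reads in FP2, 10, 3 and 2 in FP3 and 6, 6 and 5 in FP4, and 0 in the 9 SP libraries. Against a limit of 3 reads per library it was at least 1.47-fold higher over the stages. Chr9:16153454|16154026, also at 0 in each SP library, had 8, 4 and 9 reads in FP2, 6, 13 and 9 in FP3 and 3, 2 and 0 in FP4, at least 1.61-fold higher. Chr3:4888755|4889140 was the reverse. It had 0 reads in the 9 FP libraries, against 0, 7 and 0 in SP2, 10, 8 and 7 in SP3 and 4, 6 and 3 in SP4, and was at least 2.12-fold lower in WXS (F). Its reads in SP thus came mainly from meiosis and after.

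The table does not hold counts of 1, so a 0 can stand for 1 read. Chr11:3785424|3786246 was likewise seen in WXS (F) only, with 37 reads in 8 libraries, at least 1.11-fold higher over the stages. Chr6:25871067|25871556 and Chr4:16351022|16351650 had 31 and 30 reads in 7 FP libraries each, Chr2:26479112|26479502 had 22 reads in 7 and Chr2:2998204|2998716 had 28 in 6, again with none in SP. For these 4 the limit of 3 reads per library gives no fold above 1 over the stages, so none is given.

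Chr12:25045618|25046294 had 12, 8 and 3 reads in FP2, 12, 5 and 5 in FP3 and 4, 5 and 4 in FP4, against 0, 0 and 2 in SP2, 3, 0 and 0 in SP3 and 0 in SP4 (adjusted p = 0.0118). Chr5:16782938|16783669 had most of its reads at P2, with 11, 19 and 15 in FP2, against 2, 2 and 0 in SP2 (adjusted p = 0.0118 over the stages). Chr12:10464191|10464889 had 6, 2 and 10 reads in FP2, 6, 7 and 5 in FP3 and 9, 3 and 2 in FP4, against 2, 0 and 0 in SP2, 2, 0 and 2 in SP3 and 0 in SP4 (adjusted p = 0.0269). The last called circRNAs were Chr3:24824477|24824796, higher in WXS (F) (58 reads, adjusted p = 0.0499), and Chr1:38954786|38955732, lower in WXS (F), with 2 reads in the FP libraries, against 9, 4 and 5 in SP2 and 8, 5 and 10 in SP3 (adjusted p = 0.0339). Of the 17, 11 were called in each of the 18 fits that left out 1 library, 6 of them with reads in both conditions. Without both the first SP2 and the second SP3 library, 14 short circRNAs were called, 13 of them among the 17.

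In 7 of the 395 short circRNAs, CPM did not overlap between the conditions at any of the 3 stages, 5 higher and 2 lower in WXS (F). Over all 968 circRNAs, 1.45% were higher and 0.207% lower in this way. The higher ones were Chr8:27737960|27738788, Chr5:17019124|17019556, Chr2:11734000|11734652, Chr12:25045618|25046294 and Chr12:10464191|10464889, and the lower ones Chr8:3168193|3168354 and Chr1:25563110|25563966. Of these, Chr2:11734000|11734652 had no reads in any WXS (S) library. It passed the filter only through WXS (F), so its place here is a description only.

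**Figure D1:**
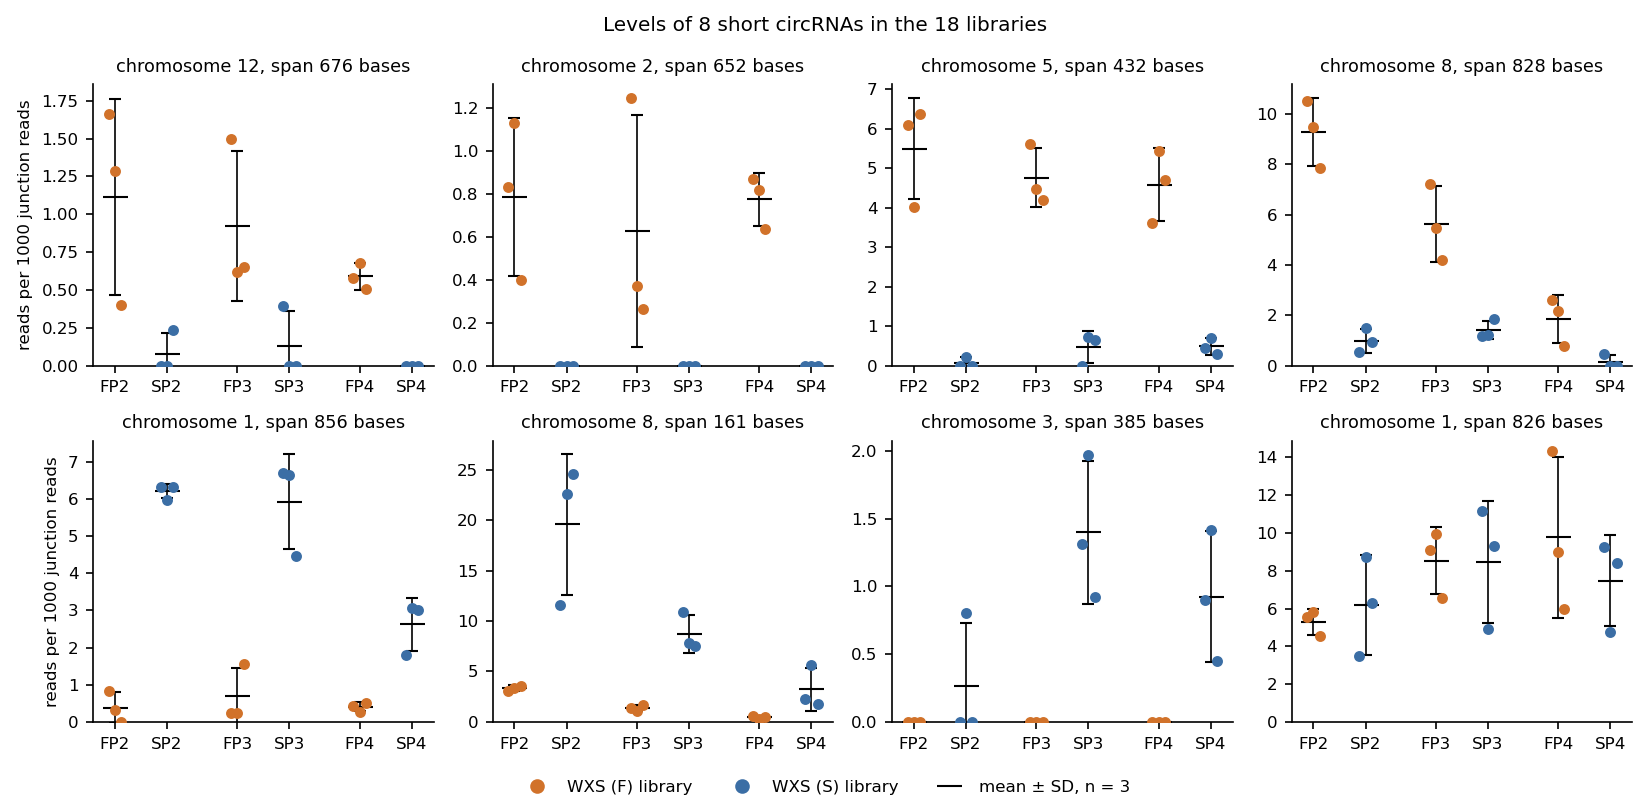
Junction reads per 1000 junction reads of the library (y axis) for 8 short circRNAs in FP2, SP2, FP3, SP3, FP4 and SP4 (x axis). Points are libraries and bars the mean ± SD of 3, with the lower end of a bar ending at 0. The first 4 panels show circRNAs higher in WXS (F), the next 3 circRNAs lower in WXS (F), and the last Chr1:24999798|25000624, whose conditions overlapped at each stage.

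Not every abundant short circRNA moved with the condition. Chr1:24999798|25000624, which had the most reads (974) and was found in all 18 libraries, held 40, 36 and 34 reads in FP2, against 26, 76 and 54 in SP2. It held 73, 80 and 50 in FP3, against 85, 20 and 71 in SP3, and 99, 66 and 47 in FP4, against 41, 20 and 56 in SP4. Its log2 fold change over the stages was 0.08 (SE 0.33, adjusted p = 0.927), and the conditions overlapped at each stage. Chr2:1620454|1620603, the third by reads and with the shortest span of 149 bases, had 7, 7 and 16 reads in FP2, against 5, 40 and 37 in SP2, and 27, 9 and 14 in FP3, against 71, 13 and 85 in SP3 (log2 fold change over the stages -1.10, SE 0.45, adjusted p = 0.120). Its lowest SP2 and SP3 counts were in the first SP2 and the second SP3 library, the ones that stood apart.

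The other circRNAs among the 10 with the most reads were Chr3:8096212|8096948 (267 reads), Chr9:1160334|1160819 (193), Chr3:7138347|7138606 (189) and Chr11:4106581|4106802 (188). None of these 4 passed the adjusted threshold in any comparison of conditions, with log2 fold changes over the stages of 0.54, 0.50, 0.92 and 0.40. Of the remaining circRNAs with divergent primers, Chr3:267628|268062 had 12, 6 and 16 reads in FP2, against 2, 11 and 2 in SP2, and 2, 6 and 5 in FP3, against 0 in SP3 (log2 fold change over the stages 2.57, SE 0.84, adjusted p = 0.0832). Chr12:21568009|21568687 had a log2 fold change of 1.23 (SE 0.48, adjusted p = 0.111) and Chr1:11275150|11275596 one of 1.20 (SE 0.58, adjusted p = 0.181).

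Whether the difference between conditions changed with the stage was tested by the interaction in the 18-library fit. No short circRNA passed at an adjusted p below 0.05 in edgeR or in DESeq2, and 11 of 395 (2.78%) had an unadjusted p below 0.05, beside 0.103% of all circRNAs at the adjusted and 5.17% at the unadjusted threshold. Of the 395, 75 had no reads in one condition, as did 121 (none in WXS (S)) and 42 (none in WXS (F)) of the 968. The test could not call these, since a model without the interaction fits them equally well. Chr1:26370209|26370622, with reads in FP4 only, is of this kind. The smallest p values belonged to Chr11:1842847|1843432, Chr8:19029116|19029485 and Chr2:183986|184453 (adjusted p = 0.545). Chr11:1842847|1843432 had 11, 7 and 7 reads in FP2 and 0 in SP2, 5, 10 and 9 in FP3 and 0, 2 and 2 in SP3, and 2, 2 and 8 in FP4 and 6, 0 and 2 in SP4, so the conditions overlapped at P4 only. Chr2:183986|184453 overlapped at P3, with 0, 4 and 3 reads in FP3 and 2, 8 and 0 in SP3, and had 4, 3 and 8 reads in FP4 and 0 in SP4.

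Changes with the stage were compared over both conditions in the 18-library fit. Only Chr8:3168193|3168354 passed the adjusted threshold between P4 and P2, and it was lower at P4 (log2 fold change -2.82, SE 0.42, adjusted p = 0.000628 from edgeR), beside 0.310% of all circRNAs called (0% higher and 0.310% lower). For P3 against P2 and P4 against P3 no short circRNA was called by edgeR, beside 0% and 0.207% of all (0.103% in each direction), and DESeq2 called 1 and 2. At the unadjusted threshold 18 short circRNAs were higher (4.56%) and 34 lower (8.61%) at P3 than at P2 (together 13.2%, beside 12.5% of all, 5.68% higher and 6.82% lower). Between P4 and P3 15 were higher (3.80%) and 42 lower (10.6%) at P4 (together 14.4%, beside 16.6% of all, 5.06% and 11.6%). Between P4 and P2 17 were higher (4.30%) and 56 lower (14.2%) at P4 (together 18.5%, beside 18.7% of all, 6.10% and 12.6%). Median log2 fold changes were -0.03, -0.47 and -0.60 in the short circRNAs, beside 0.00, -0.41 and -0.39 over all tested.

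Other stage differences with small p values were those of Chr8:27737960|27738788 (P4 against P2 log2 fold change -2.38, SE 0.57, adjusted p = 0.0739) and Chr8:3168033|3168192 (-3.18, SE 0.83, adjusted p = 0.0851), neither of which passed. Chr6:16768493|16768930 had 0, 8 and 4 reads in FP2 and 6, 5 and 3 in SP2, no reads at P3, and 3 in a single SP4 library. Chr5:16782938|16783669 had 49 of its 63 reads at P2. Chr1:28263443|28263981 and Chr1:38954786|38955732 had reads at P2 and P3 and none in the 6 libraries of P4.

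Among circRNAs with most of their reads at P4 was Chr1:26370209|26370622, seen only in FP4 with 9, 5 and 6 reads, and Chr10:19779401|19779888, with 3, 8 and 5 reads in FP4 and otherwise 4 and 2 in FP2 libraries. Chr3:30006457|30006842 had 0, 13 and 13 reads in FP4 and 2, 0 and 0 in SP4, and Chr2:33690992|33691150 had 7, 5 and 4 in FP4 and 2, 2 and 4 in SP4. Adjusted p values of these stage differences lay at 0.139 or above. With the smallest p values among those higher at P3 than at P2 were Chr3:135489|136488, Chr8:24225759|24226235 and Chr3:29019299|29019457, none with a read at P2, with 14, 8 and 9 reads in all (adjusted p = 0.354 each). Chr4:28046831|28047001, with 12 reads, was likewise without reads at P2.

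Reads at all 3 stages were found for 234 of the 728 short circRNAs, at 2 stages for 259 and at a single stage for 235. Of those at a single stage, 121 were seen at P2, 83 at P3 and 31 at P4. Of the short circRNAs seen only at P2, P3 or P4, 82, 54 and 23 had reads in only 1 library. Just 13 circRNAs had reads at a single stage in at least 3 libraries.

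As a group, the short circRNAs took a smaller share of the junction reads at P4. P2 libraries gave them 13.6 ± 2.57% of the junction reads, P3 libraries 12.4 ± 1.99% and P4 libraries 8.61 ± 1.54% (SD, n = 6 each). The share at P4 differed from that at P2 by -5.02 percentage points (two-sided exact permutation p = 0.0108) and from that at P3 by -3.76 points (exact p = 0.00649), with Benjamini-Hochberg adjusted p = 0.0379 for both over 7 comparisons. The shares of the classes of span sum to a whole, so one cannot change alone. In P2, P3 and P4 libraries the circRNAs of 1000 to under 5000 bases took 21.9 ± 1.61%, 19.98 ± 3.40% and 15.2 ± 1.64%, while those of 5000 bases or more took 47.8 ± 3.87%, 50.9 ± 6.48% and 62.9 ± 2.69% (SD, n = 6 each), which were not tested. Within WXS (F) the 3 stages did not overlap, at 13.2 to 14.7%, 11.4 to 13.0% and 9.15 to 10.2%, and each exact p was 0.1, the smallest that a design of this size allows. Within WXS (S) the ranges were 8.73 to 16.0%, 9.74 to 15.7% and 6.38 to 8.85%, and P4 overlapped P2 through the first SP2 library only.

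Between the conditions the share did not differ beyond the spread of the libraries at P2 (14.2 ± 0.843% in FP2 and 13.1 ± 3.86% in SP2, SD, n = 3 each, exact p = 0.8) or P3 (12.1 ± 0.832% in FP3 and 12.6 ± 3.00% in SP3, exact p = 0.8). At P4 it was 9.77 ± 0.540% in FP4 and 7.46 ± 1.27% in SP4, without overlap, and the exact p of 0.1 is the smallest that 3 libraries against 3 can give. Without the first SP2 library, which held 8.73% (95% Wilson interval 8.10% to 9.39%) against 16.0% and 14.5% in the others, the difference at P2 turned to -1.13 percentage points. Over the 3 stages the difference was 0.956 points (exact permutation p within stages 0.361), and -0.253 points (exact p = 0.750) without the first SP2 and the second SP3 library.

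The number of short circRNAs with reads was 205, 164 and 223 in FP2, 138, 206 and 204 in SP2, 201, 185 and 184 in FP3, 201, 92 and 171 in SP3, 138, 153 and 155 in FP4, and 89, 96 and 98 in SP4. P4 libraries differed from P2 libraries by -68.5 (exact permutation p = 0.0108, adjusted p = 0.0433 over 4 comparisons). The difference from P3 was -50.8 (exact p = 0.0411, adjusted p = 0.0548). WXS (F) libraries held 34.8 more than WXS (S) libraries within stages (exact p = 0.0258, adjusted p = 0.0515). Depth also differed between the conditions, and SP4 held 4439, 4226 and 6647 junction reads against 6905, 7342 and 7878 in FP4. At P3 mean depth was 7902 junction reads in FP3 and 6434 in SP3. At P2 it went the other way, with 6986 in FP2 and 8217 in SP2, while the mean number of short circRNAs was 197 and 183. With libraries thinned to the smallest total the difference between conditions was 9.67 (exact p = 0.202). After thinning P4 differed from P2 by -33.1 (exact p = 0.0130) and from P3 by -25.4 (exact p = 0.00433).

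**Figure D2:**
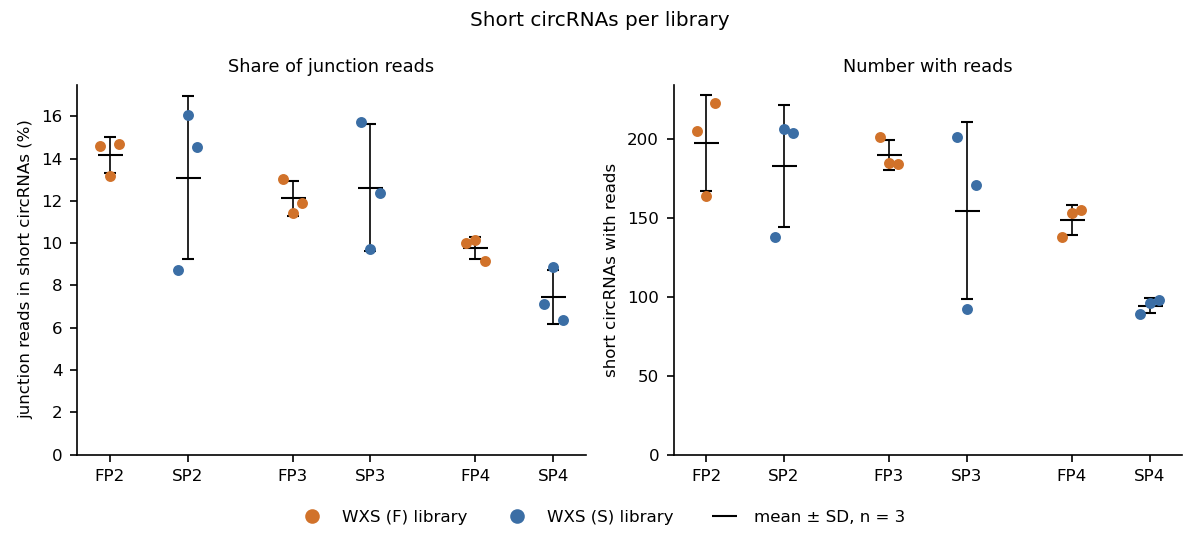
Percent of junction reads in the 728 short circRNAs (left) and number of them with reads (right) per library, by group on the x axis. Points are libraries and bars the mean ± SD of 3. SP4 libraries lie at 6.38 to 8.85% and at 89 to 98 circRNAs. The first SP2 library (8.73%) lies in this range on the left and the second SP3 library (92) on the right.

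The short circRNAs were also split by their deposited length. The split was chosen after the values were seen, and the difference between its classes was not tested. The 327 circRNAs whose deposited length is not the span plus 1 held 8.12, 6.91 and 7.90% of the junction reads in FP2, against 3.09, 5.93 and 5.39% in SP2. They held 6.92, 6.07 and 6.65% in FP3, against 6.30, 4.33 and 5.21% in SP3, and 5.17, 4.94 and 4.58% in FP4, against 3.18, 2.96 and 2.68% in SP4. FP libraries lay above SP libraries at P2 and P4 and overlapped at P3. In the 18-library fit 8 of the 194 tested were higher and 1 lower in WXS (F), beside 2.58% and 0.930% of all circRNAs. Those higher include circRNAs without reads in WXS (S), which had to differ. They are Chr2:11734000|11734652, Chr11:3785424|3786246, Chr4:16351022|16351650, Chr2:26479112|26479502 and Chr2:2998204|2998716.

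The 401 circRNAs whose length is the whole stretch between the ends held 6.49, 6.28 and 6.78% in FP2, against 5.64, 10.1 and 9.13% in SP2, and 6.12, 5.35 and 5.25% in FP3, against 9.43, 5.41 and 7.18% in SP3. In FP4 they held 4.82, 5.22 and 4.57%, against 3.96, 5.89 and 3.70% in SP4. Here the SP libraries were the higher ones at P2 and P3 except for the first SP2 and the second SP3 library. Chr8:3168193|3168354 belongs to this class, with a mean CPM of 19575 in SP2 and 3338 in FP2. At P3 its mean CPM was 8750 in SP3 and 1397 in FP3. The class shares without it were not computed. In the 18-library fit 5 of the 201 tested were higher and 3 lower in WXS (F), beside the same 2.58% and 0.930%. Here too some had no reads in one condition and had to differ. These are Chr9:16153454|16154026 and Chr6:25871067|25871556 among the higher and Chr3:4888755|4889140 among the lower.

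The deposited length was a multiple of 3, the size of a codon, for 295 of the 728 short circRNAs (40.5%), where an even share is 33.3%. This was 160 of the 401 contiguous ones (39.9%) and 135 of the other 327 (41.3%). Below a span of 300 bases it was 124 of 262 contiguous circRNAs (47.3%) and 10 of 21 others (47.6%). At 300 to 599 bases it was 17 of 82 contiguous ones and 53 of 152 others, and at 600 to 999 bases 19 of 57 and 72 of 154. Among circRNAs of 1000 bases or more it was 122 of 403 (30.3%) and 211 of 509 (41.5%), and in contiguous circRNAs below 300 bases and below the read minimum 1203 of 2657 (45.3%). The commonest spans of the short circRNAs, each 1 base under a multiple of 3, were 227 bases (9 circRNAs), 149 (8) and 152, 164 and 176 (7 each).

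The 160 contiguous circRNAs with a multiple of 3 held 2.37, 2.42 and 2.87% of the junction reads in FP2, against 2.56, 6.04 and 5.30% in SP2, and 2.07, 2.41 and 2.16% in FP3, against 5.12, 2.36 and 3.89% in SP3. In FP4 they held 2.13, 2.25 and 1.97%, against 1.91, 3.19 and 1.79% in SP4. The 241 other contiguous ones held between 2.60 and 4.12% in FP libraries and between 1.91 and 4.31% in SP libraries. Among the contiguous multiples of 3, Chr8:3168193|3168354 (length 162) and Chr2:1620454|1620603 (length 150) had the most reads. What sets the first SP2 and second SP3 library apart was not tested.

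**Figure D3:**
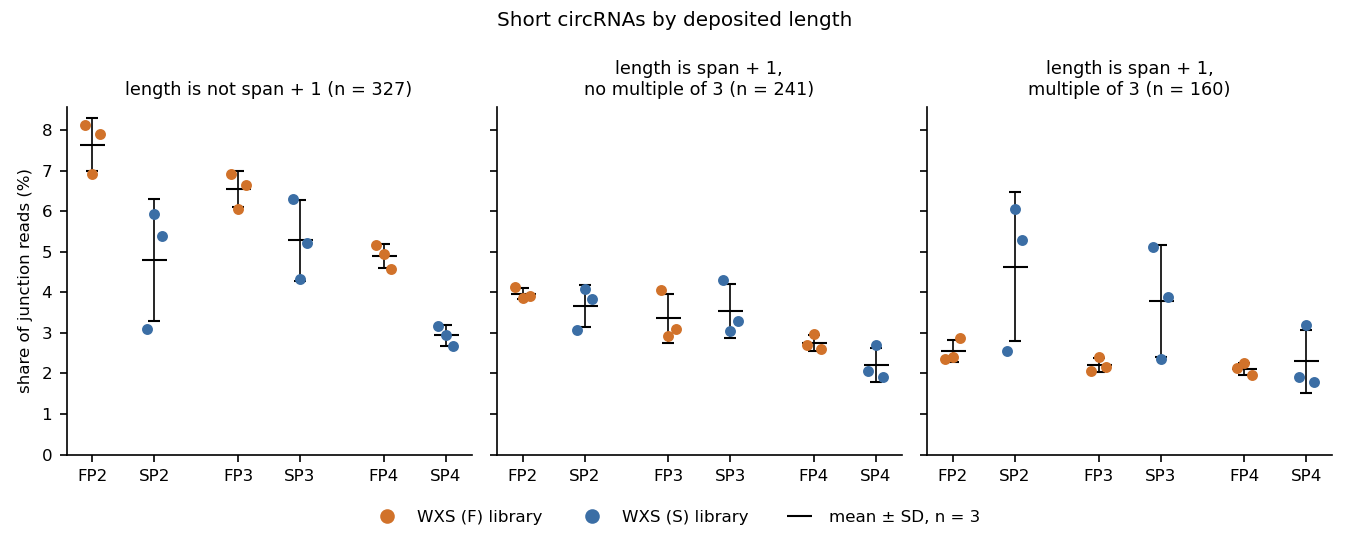
Share of a library's junction reads (y axis, percent) in short circRNAs of 3 classes of deposited length, by group. Points are libraries and bars the mean ± SD of 3. CircRNAs whose length is not the span plus 1 run from 6.91 to 8.12% in FP2 and from 3.09 to 5.93% in SP2, while contiguous ones with a multiple of 3 run from 2.37 to 2.87% in FP2 and from 2.56 to 6.04% in SP2.

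Replicate libraries agreed weakly on which short circRNAs were present. Summed over the 6 groups there were 1926 cases of a short circRNA with reads in a group. In 1226 of these (63.7%) the reads came from 1 of the 3 libraries, and in 277 (14.4%) from all 3. Among circRNAs of 5000 bases or more, 36.2% of cases were in all 3 libraries, and among those of 1000 to under 5000 bases 18.6%. The median reads per circRNA were 8, 23 and 9 in short, long and middle circRNAs, and the part of read number in this difference was not tested. Of the 45 short circRNAs with at least 50 reads, 65.4% of cases were in all 3 libraries.

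Detection in all 3 libraries was more frequent in WXS (F) at each stage. Of the short circRNAs with reads in a group, 72 of 361 (19.9%) were in all 3 FP2 libraries, against 41 of 382 (10.7%) in SP2. At P3 it was 58 of 362 (16.0%) in FP3, against 35 of 319 in SP3, and at P4 50 of 292 (17.1%) in FP4, against 21 of 210 in SP4. The first SP2 and second SP3 library and the lower depth of SP4 enter these counts.

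Across the 728 short circRNAs, Pearson's r of log2(CPM + 1) between libraries of one group had a median of 0.32 (0.21 to 0.41 over 18 pairs). Between the stages of one condition it was 0.28 (54 pairs), and between the conditions at one stage 0.20 (27 pairs). For circRNAs of 1000 to under 5000 bases the 3 medians were 0.38, 0.36 and 0.29, and for those of 5000 bases or more 0.58, 0.50 and 0.51. These correlations are across circRNAs, which are not independent replicates, and libraries share depth and many zeros. Within FP2 r lay at 0.37 to 0.40 and within SP2 at 0.21 to 0.22. Over the 45 short circRNAs with at least 50 reads, Spearman's rho within groups had a median of 0.59 and between conditions at one stage of 0.22.

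**Figure D4:**
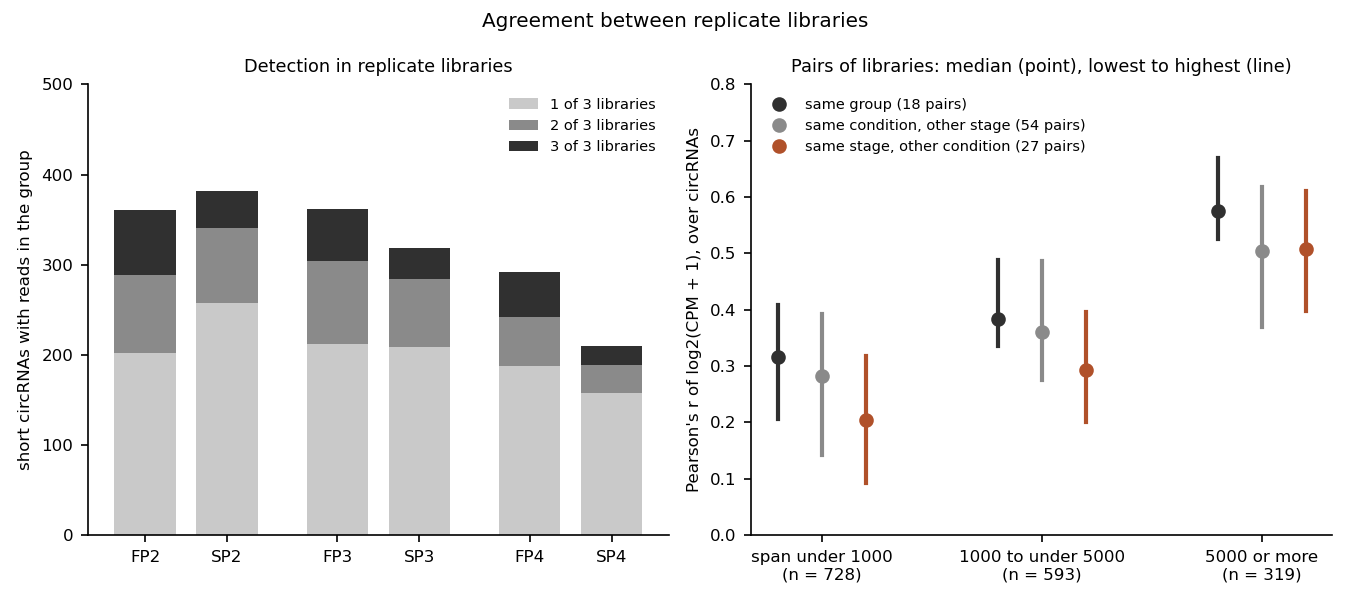
Left, short circRNAs with reads in each group, split by the number of replicate libraries that held reads. Right, Pearson's r across circRNAs between pairs of libraries for 3 classes of span, with the median as a point and the lowest to highest pair as a line. In short circRNAs pairs of one group reach at most 0.41, and most detections in each group rest on 1 library.

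Overlapping short circRNAs were grouped into loci. The 728 formed 693 loci, of which 33 held several short circRNAs, 31 with 2 and 2 with 3, so 68 circRNAs (9.34%) shared a locus. Of the 37 overlapping pairs, 11 shared the start, 14 the end, 4 were nested and 8 were staggered. Sharing one end was thus the commonest arrangement (25 of 37), and the other end then moved by 3 to 529 bases. In 12 of the 37 pairs one circRNA had at least 5 times the reads of the other, and in 17 less than 2 times. Counting all 9994 circRNAs, 300 short ones (41.2%) overlapped another circRNA, and 186 (25.5%) shared an end with one, of which 134 held most of the reads at the shared ends.

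In 4 of the 5 loci chosen for the most short circRNAs and reads, a single circRNA dominated. At the locus of Chr1:24999798|25000624 (974 reads), Chr1:24999838|25000624 starts 40 bases later and had 18 reads, and Chr1:24999798|25000627 ends 3 bases later and had 6. Chr1:25563087|25563966 starts 23 bases before Chr1:25563110|25563966 (339 reads) and had 6 reads, all in 1 SP2 library. Chr3:8096250|8096948 had 5 reads beside 267 for Chr3:8096212|8096948, and Chr9:1160560|1160819 had 7 beside 193 for Chr9:1160334|1160819. The fifth locus held Chr1:26602369|26602567, Chr1:26602395|26602567 and Chr1:26602402|26602554, with 6, 6 and 5 reads, never 2 of them in one library. Reads at junctions a few bases apart can be placed on either by the aligner, so such counts are uncertain.

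Among the pairs with unequal ends, Chr12:10464195|10464889 starts 4 bases after Chr12:10464191|10464889 and had 6 reads, all in 1 FP3 library, while Chr12:10464191|10464889 had 50 of its 56 reads in WXS (F). Chr6:25871067|25871552 ends 4 bases before Chr6:25871067|25871556, and both were seen in WXS (F) only, with 6 and 31 reads.

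A further 4 pairs of short circRNAs abutted, with one starting at the base after the other ended. The clearest is on chromosome 8, where Chr8:3168033|3168192 (41 reads in WXS (F) and 92 in WXS (S)) is followed by Chr8:3168193|3168354 (113 and 710). Chr8:3168355|3168564 follows with 4 reads, 2 in each of 2 SP2 libraries. Both short circRNAs were lower in FP2 than in SP2, as given above, while at P3 the first overlapped between conditions and the second did not. On chromosome 6, Chr6:8063339|8063503 (26 reads in WXS (F) and 16 in WXS (S)) is followed by Chr6:8063504|8063686 (12 and 10).

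The other abutting pairs lie in one locus on chromosome 2 with 14 circRNAs and 211 reads, 5 of them in the group described here. Chr2:3341286|3341513 had the most, with 30 reads in WXS (F) and 94 in WXS (S), of which 0, 23 and 13 fell in the SP2 libraries and 24, 3 and 24 in the SP3 libraries. Chr2:3341742|3341969 had 17 and 18 reads, and Chr2:3341058|3341285 had 8, all in 1 FP4 library. All 3 are 228 bases long, and the starts of Chr2:3341058|3341285 and Chr2:3341742|3341969 lie a whole number of such lengths, -228 and 456 bases, from that of Chr2:3341286|3341513. Chr2:3340674|3340901, also 228 bases long and with 12 reads, all in WXS (S), starts at -612 bases, which is no whole number of such lengths. Of the 14 circRNAs, 10 span exactly 1 or 2 lengths of 228 bases. A span of 227 bases is the commonest among the short circRNAs (9, of which 4 lie on chromosome 2) and is held by 37 circRNAs of the whole table. In 3 of the 8 staggered pairs, which lie on chromosomes 3, 5 and 12, both ends were likewise displaced by the same number of bases, so that the spans were equal. Where a sequence is repeated in tandem, junctions one repeat apart cannot be told apart by their reads, and no genome of this build was used here to look for repeats.

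**Figure D5:**
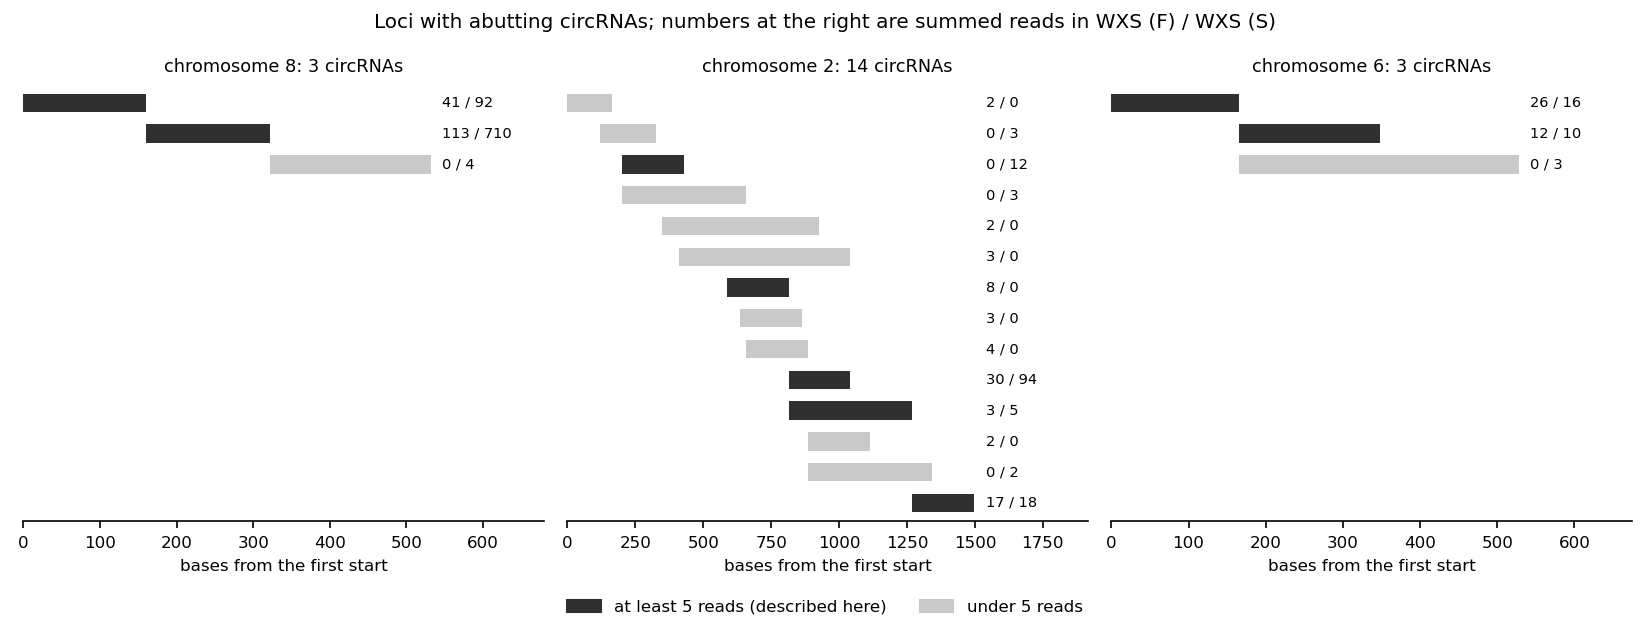
Extent of circRNAs at the 3 loci with abutting short circRNAs on chromosomes 8, 2 and 6, in bases from the first start (x axis), 1 bar per circRNA. Dark bars are short circRNAs with at least 5 reads and light bars those below, and the numbers are summed reads in WXS (F) and WXS (S). On chromosome 8 the middle circRNA holds 113 and 710 reads, and on chromosome 2 most bars have 1 or 2 lengths of 228 bases.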

How the data were processed

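Processed tables of 18 RNA-seq libraries of WXS young panicles were used, from rRNA-depleted, strand-specific libraries. The authors mapped reads to the MSU-v7.0 genome with HISAT2 and called back-splicing with find_circ; the processing notes also name StringTie 1.3.1. The deposited junction read counts per circRNA and library are not normalized, and 0 columns were unmatched. The deposited TPM values of the authors divide these counts by the length column and were not tested. The deposited coding-gene counts served as alternative library sizes, and the deposited FPKM values of the authors for tissue markers only.

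Members, lists and named circRNAs were chosen with earlier results of these data known. Named were circRNAs called between conditions, those with the 3 smallest p values of each test (per direction for stages), the 10 with most reads, those with divergent primers and those of the 5 loci with most members. Other circRNAs in abutting or overlapping pairs were named after their values were seen.

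Counts were tested with edgeR 4.0.16 in R 4.3.3 (TMM, quasi-likelihood, reads in at least 3 libraries of the fit, Benjamini-Hochberg adjustment over all circRNAs tested). SEs were derived from each fold change and its F statistic and are approximate. DESeq2 1.42.0 was an alternative. Exact permutation tests (two-sided, Python 3.11.15) compared shares and numbers over libraries. A count of 3 was the limit that a 0 allows, and intervals (95%) cover counting error only. With 4066 to 8686 junction reads per library, 3 reads are 0.0345 to 0.0738% of a library. The scripts were tested on simulated data. Host genes and splice-site sequence were not analysed here, since no annotation or genome of this build was used.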

Additional observations from a re-analysis of the deposited data

How the results depend on the processing

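Calls at single stages depended on the method. With DESeq2, 8, 8 and 9 short circRNAs passed the adjusted threshold at P2, P3 and P4, and 26 the unadjusted one at P2. With at least 10 junction reads required in the fit no adjusted call was left at any stage (0, 0 and 0), and 27 unadjusted calls at P2 and 21 at P3. One fit of all 18 libraries with a mean per group gave 3, 0 and 0 adjusted calls, and an adjusted p below 0.01 gave 3, 0 and 0. With the deposited length below 1000 bases in place of the span, 51 passed unadjusted at P3. Leaving out 1 library gave 0 to 6, 0 to 4 and 0 to 1 adjusted and 18 to 40, 13 to 27 and 9 to 28 unadjusted calls. Over the stages the 17 calls became 25 with DESeq2, 21 with coding-gene library sizes, 11 without a filter on low counts, 7 at an adjusted p below 0.01 and 12 to 19 without 1 library. For the stages, DESeq2 called 1 (P3 against P2), 2 (P4 against P3) and 8 (P4 against P2). P4 against P2 gave 2 calls with coding-gene library sizes, 2 without the first SP2 and second SP3 library, and 1 to 3 without 1 library.

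Replicate numbers showed no sign of pairing the samples, with deviations correlated at -0.04 to 0.03 for same-numbered and -0.07 to 0.08 for other libraries. With counts this sparse, such values cannot exclude a pairing. With a replicate block there were 5 adjusted calls at P3, 0 at P4 and 3 between P4 and P2, and 16, 14 and 7 unadjusted calls at P2, P3 and P4.

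The share difference between conditions at P3 turned positive per coding-gene count (1.60 reads per 1e6 counts), with the deposited length (1.46 points) and with at least 10 reads (0.116 points). The deposited length gave 3.50 points over the stages (exact permutation p = 0.0238). Without the first SP2 and second SP3 library the differences were -1.13 points at P2 and -0.253 over the stages, and that in number was 16.9, against 9.67 after thinning. Between P4 and P3 the number differed by -29 with at least 10 reads. Without 1 library, share differences ranged over -1.13 to 2.53 (P2), -1.94 to 1.05 (P3), 1.77 to 3.01 (P4), 0.227 to 1.47 (over the stages), -2.24 to -0.736 (P3 minus P2), -4.28 to -3.08 (P4 minus P3) and -6.00 to -4.53 (P4 minus P2), and differences in number over 24.3 to 42.5, -28.1 to -1.6, -66.9 to -44.3 and -78.9 to -61.9. Of the fold changes of named circRNAs under other settings, 873 kept direction and side of the threshold, 116 no longer passed, 21 newly passed and 0 reversed. These circRNAs were picked by their p values in the same fits. Those without reads in one condition could not reverse between conditions, so the 0 is no evidence of stability for them. The removal of both libraries was chosen after seeing the data. Host genes and sequence at the ends were planned and not run.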
